A study of Mus musculus with 9 samples.

Results

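The genes described here encode the subunits of the proteasome, together with its activators, its inhibitor and the chaperones that assemble it. They were chosen by symbol, as genes of the Psma, Psmb, Psmc, Psmd, Psme, Psmf and Psmg series without the pseudogenes, which gave 50 of the 33211 genes in the table. Of these, 49 had at least 10 counts in at least 4 libraries and were kept. The exception was Psmb11, the core subunit of the thymus, which had 0 counts in every library. The 49 genes were 8 core alpha subunits, 7 constitutive core beta subunits, 3 immunoproteasome subunits, 6 ATPases, 3 further subunits of the base, 8 subunits of the lid, 5 activators or inhibitors, 7 assembly chaperones and 2 genes that share the naming scheme only. Those 2 were Psmc3ip, a meiotic recombination factor, and Psme2b, a retrotransposed copy of Psme2.

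The proteasome is the main ATP-dependent protease of the cytosol and the nucleus and degrades proteins that carry ubiquitin chains. Its 20S core is a barrel of alpha and beta rings that holds the proteolytic sites, and the 19S regulatory particle recognises, unfolds and feeds in the substrate. Interferons induce replacement beta subunits, which form the immunoproteasome, and the PA28 activator, and both shape the peptides that MHC class I molecules present. In hepatocytes the proteasome clears misfolded secretory proteins, apolipoprotein B among them.

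RNA-seq was performed on the livers of male wild-type C57BL/6 mice (C57BL6/J in the methods) fed a high-fat diet (HFD) that differed in its storage. In the HFDfre group (n = 5) the diet was kept in a freezer at -20 °C, and in the HFDfri group (n = 4) it was kept in a fridge at 4 °C. The mice were 8 weeks old at the start and were fed for 7 weeks, and neither the labels nor the methods name another treatment or allele for either group. One library stood for 1 mouse as far as the labels and the study's description of the table state.

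The libraries held 60323908 to 68528457 counts (HFDfre) and 58614917 to 69353439 counts (HFDfri), and the kept proteasome genes took 0.236% to 0.292% of them. A ribosomal RNA-like locus, Gm26924, took between 0.466% and 11.1% of a library, and the mitochondrial genes took 11.4% to 19.8% in HFDfre and 8.93% to 13.6% in HFDfri. All 8 hepatocyte markers were detected, with summed levels of 97167 to 104390 CPM (counts scaled to a common library size) in HFDfre and 86437 to 115450 CPM in HFDfri. The library HFDfri 1 lay at an end of its group for many proteasome genes, but Dixon's outlier test over 34 sets of values flagged 0. The values without HFDfri 1 are given beside the results they change. They show how far a result rests on 1 library and do not replace the fit with all libraries.

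The start regions of 5 of the 8 genes with the smallest unadjusted p between the diets are shown. The motifs of factors known to act on proteasome or interferon genes are marked in them. Each region runs from 250 bases before to 50 bases after the start in RefSeq (GRCm38.p6) and is read 5′ to 3′ along the gene. The regions are chr16:20651402-20651701 on the plus strand for Psmd2, chr14:55578244-55578543 on the plus strand for Psme1, chr17:34187281-34187580 on the minus strand for Psmb9, chr11:30771525-30771824 on the plus strand for Psme4 and chr14:54617946-54618245 on the minus strand for Psmb5. Capitals mark a match to any of 5 motifs on either strand, namely TGACNNNGC, the core of the antioxidant response element, CCAAT, the NF-Y box, CACGTG, the E-box, GAAA followed after 2 bases by GAAA, the core of the interferon-stimulated response element, and TTCNNNGAA, the core of the STAT site.
Psmd2: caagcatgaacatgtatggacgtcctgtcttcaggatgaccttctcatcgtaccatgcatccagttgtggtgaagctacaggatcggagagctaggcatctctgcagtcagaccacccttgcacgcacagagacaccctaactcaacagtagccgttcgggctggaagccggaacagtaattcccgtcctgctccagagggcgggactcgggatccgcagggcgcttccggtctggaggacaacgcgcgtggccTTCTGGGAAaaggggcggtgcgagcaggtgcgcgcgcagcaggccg
Psme1: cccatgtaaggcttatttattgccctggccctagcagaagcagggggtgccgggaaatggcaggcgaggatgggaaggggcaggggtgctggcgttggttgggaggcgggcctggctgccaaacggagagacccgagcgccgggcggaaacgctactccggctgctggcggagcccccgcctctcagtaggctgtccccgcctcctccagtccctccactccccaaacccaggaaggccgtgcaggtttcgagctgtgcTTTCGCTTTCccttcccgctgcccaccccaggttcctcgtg
Psmb9: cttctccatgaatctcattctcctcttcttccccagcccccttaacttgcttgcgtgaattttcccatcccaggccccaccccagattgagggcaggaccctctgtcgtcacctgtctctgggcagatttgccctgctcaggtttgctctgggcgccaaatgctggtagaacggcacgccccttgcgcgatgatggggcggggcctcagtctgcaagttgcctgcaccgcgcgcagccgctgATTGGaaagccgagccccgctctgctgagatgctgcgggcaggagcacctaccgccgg
Psme4: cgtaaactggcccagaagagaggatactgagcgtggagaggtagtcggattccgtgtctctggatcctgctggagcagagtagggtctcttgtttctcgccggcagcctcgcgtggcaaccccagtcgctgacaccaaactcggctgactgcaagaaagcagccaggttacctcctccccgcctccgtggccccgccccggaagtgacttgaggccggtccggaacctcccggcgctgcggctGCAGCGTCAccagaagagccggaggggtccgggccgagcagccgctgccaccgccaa
Psmb5: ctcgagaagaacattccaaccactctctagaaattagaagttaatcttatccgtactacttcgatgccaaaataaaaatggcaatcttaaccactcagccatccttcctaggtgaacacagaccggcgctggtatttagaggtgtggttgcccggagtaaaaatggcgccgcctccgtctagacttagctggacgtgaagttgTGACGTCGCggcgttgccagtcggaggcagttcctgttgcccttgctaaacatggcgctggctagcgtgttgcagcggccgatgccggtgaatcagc
Each of the 5 regions held 1 match and no overlapping ones. It was the STAT core in Psmd2, the reverse complement of the interferon-stimulated core in Psme1, the reverse complement of CCAAT in Psmb9, the reverse complement of the antioxidant core in Psme4 and the antioxidant core in Psmb5. Of the 8 genes, those not shown were Psmc1, Psmd13 and Psme2. Psmc1 held 1 match, to CCAAT, and Psmd13 and both regions of Psme2 held none. RefSeq start regions were found for 41 of the 49 kept genes, 44 regions in all. The antioxidant core was in 6 of them, or 13.6%, against 12.4% of all 32851 start regions of the genome, and CCAAT was in 14, or 31.8%, against 37.4%. The E-box was in 4, or 9.09%, against 7.15%, and the STAT core in 3, or 6.82%, against 8.30%. The interferon-stimulated core was in 5 regions, or 11.4%, against 3.44%, and those belonged to Psmb3, Psmd4, Psmd9, Psme1 and Psmg4. The regions of Psme2, Psmb8, Psmb9 and Psmb10 did not hold it. A match describes the letters of the region and not the binding of a factor.

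Levels of different genes were compared as CPM per kilobase of transcript. This is the CPM after scaling of the libraries (TMM, the trimmed mean of M-values) divided by the length of a chosen transcript. The longest transcript marked as principal in the annotation was chosen, failing that the longest protein-coding one, then the longest of any kind. Which transcripts the livers expressed was not examined. The constitutive beta subunit Psmb6, which carries the caspase-like site, was the highest, with 155 ± 12.9 CPM per kilobase in the 5 HFDfre libraries and 132 ± 25.4 in the 4 HFDfri libraries (SD). The next were Psmb3 at 111 CPM per kilobase over all libraries, Psma7 at 109.6 and Psmb5 at 109, and these 3 lay within each other's spread. The 19S subunits were lower as a rule, led by the ubiquitin receptor Psmd4 at 72.5 CPM per kilobase. Psmc3 followed at 53.4 and Psmc5 at 46.7.

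The immunoproteasome subunits stood well below the constitutive ones. Psmb10 reached 19.04 CPM per kilobase, Psmb9 15.3 and Psmb8 14.7, and Psmb9 and Psmb8 did not differ beyond their spread. The PA28 subunits were far higher, with Psme2 at 64.1 CPM per kilobase and Psme1 at 61.8, again within each other's spread. At the low end stood Psme4 at 8.43, the chaperone Psmd5 at 4.02 and the testis subunit Psma8 at 0.276 CPM per kilobase.

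**Figure D1:**
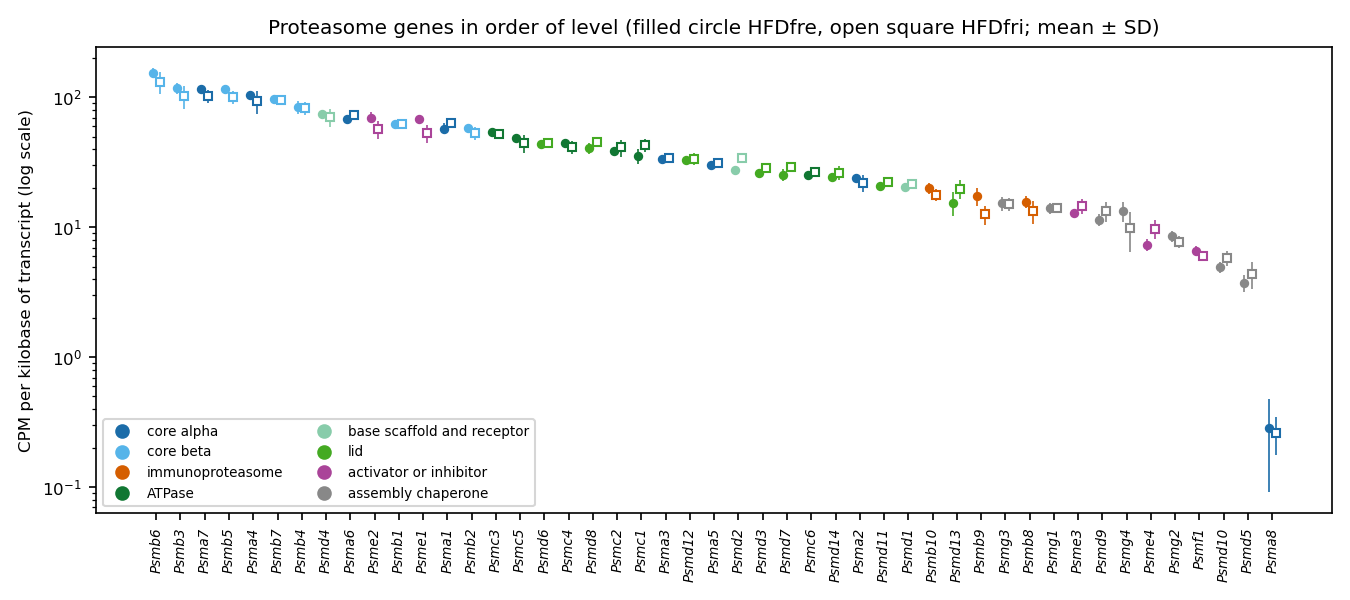
Mean level of 47 proteasome genes in CPM per kilobase of transcript (log axis), in descending order, with filled circles for HFDfre (n = 5) and open squares for HFDfri (n = 4), SD as bars and colours for the role in the complex. The core subunits lead with Psmb6 at 155 and 132, the immunoproteasome subunits lie below 20 and Psma8 is the lowest at 0.286 and 0.263.

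The diets were then compared gene by gene with the quasi-likelihood test of edgeR, fitted over all 14220 genes that passed the filter on low counts, and all 49 kept proteasome genes were tested. None of them passed an adjusted p of 0.05, a threshold that 1.05% of all tested genes passed. At an unadjusted p under 0.05, 4 proteasome genes were higher in HFDfri, against 11.4% of all genes, and 4 were lower, against 9.79%. Limma-voom likewise gave 0 genes past the adjusted threshold, with 4 higher and 5 lower at the unadjusted one. DESeq2 gave 4 past its adjusted threshold, namely Psmd2, Psmb9, Psme1 and Psme4 with adjusted p = 0.0220, 0.0417, 0.0440 and 0.0470, where 7.26% of all genes passed. Without HFDfri 1, 8 of the 49 genes passed in edgeR, where 7.65% of all genes passed.

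The median log2 difference of the 49 genes (HFDfri minus HFDfre) was -0.01, as was that of all genes tested, with 23 genes higher and 26 lower. Within this, the particles lay on different sides of 0. The lid was above 0 in 8 of 8 genes, with a median of 0.12. The count was also 8 of 8 under each scaling and correction run, with medians of 0.18 by library totals without TMM and 0.23 after correction for GC content and length, and it was 6 of 8 without HFDfri 1. The constitutive beta subunits were below 0 in 7 of 7, with a median of -0.14, but in 4 of 7 when scaled by library totals without TMM, and in 0 of 7 after correcting for GC content and transcript length. The alpha subunits without Psma8 were split, 4 higher and 3 lower, with a median of 0.03, and the ATPases were split 3 and 3, with a median of 0.02. Without HFDfri 1 the splits were 2 and 5 and 2 and 4, with medians of -0.02 and -0.06.

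**Figure D2:**
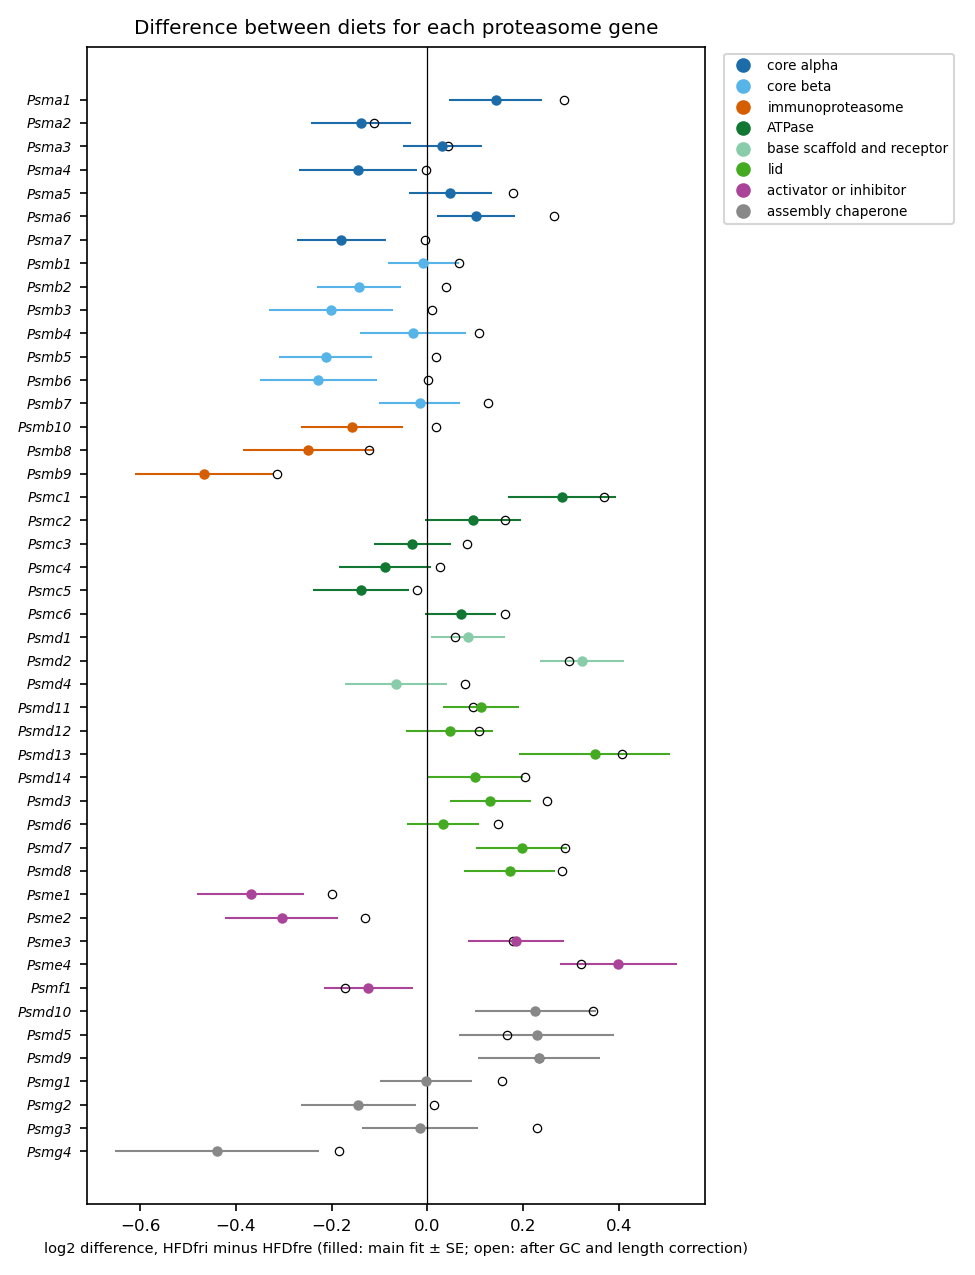
Log2 difference (HFDfri minus HFDfre) of 46 proteasome genes, without Psma8, as filled points with SE bars in the colour of their role, and as open circles after correction for GC content and transcript length. All 8 lid genes lie to the right of 0, the 7 constitutive beta subunits to the left before the correction and to the right after it, and Psmb9 at -0.47 and Psme4 at 0.40 mark the ends.

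Among the constitutive beta subunits, the trio that carries the proteolytic sites was examined library by library. Psmb5 (ENSMUSG00000022193, chromosome 14, 54614119 to 54618022), which holds the chymotrypsin-like site, was at 103, 93.0, 105, 117 and 104 CPM in HFDfre 1 to 5 and at 103, 82.2, 83.7 and 91.1 CPM in HFDfri 1 to 4. The log2 difference was -0.21 ± 0.10 (SE), with an adjusted p of 0.236 in edgeR. After TMM scaling HFDfri 1 lay among the HFDfre libraries and the other 3 lay below all of them. By library totals without TMM, all HFDfri libraries of Psmb5 lay within the HFDfre range.

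Psmb6 (chromosome 11, 70525367 to 70527858) showed the same split after TMM scaling. It was at 139, 112, 125, 117 and 127 CPM in HFDfre and at 135, 92.0, 92.3 and 103 CPM in HFDfri. Its log2 difference was -0.23 ± 0.12 (edgeR adjusted p = 0.315), and without HFDfri 1 it was -0.38 ± 0.09, with an adjusted p of 0.0350. Psmb7 (chromosome 2, 38588036 to 38644087), the trypsin-like subunit, was at 107, 104, 113, 120.2 and 117 CPM in HFDfre and at 117, 114, 100.3 and 113 CPM in HFDfri. The Psmb7 libraries overlapped almost fully, and the log2 difference was -0.02 ± 0.08 (edgeR adjusted p = 0.933).

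After TMM scaling, HFDfri 1 had the highest level of its group in 13 of the 14 core subunits (alpha without Psma8 and constitutive beta) and in 7 of 7 beta subunits. With all libraries, 10 of the 14 core subunits were lower in HFDfri and 4 higher, with a median log2 difference of -0.08. Without HFDfri 1 the split was 12 lower and 2 higher, the median was -0.15, and Psmb6, Psmb3 and Psma4 passed the adjusted threshold. Scaling by library totals without TMM gave 7 lower and 7 higher, and correcting for GC content and length gave 3 lower and 11 higher.

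The interferon-inducible genes, which are the 3 immunoproteasome subunits and the 2 PA28 subunits, were below 0 in 5 of 5, with a median log2 difference of -0.30. This held under every scaling that was run, except that correcting for GC content and length moved the median to -0.13 and Psmb10 to 0.02. Of the 5, 3 had an unadjusted p under 0.05, namely Psme1, Psmb9 and Psme2, all lower, where 9.79% of all genes were called lower.

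Psme1 (ENSMUSG00000022216, chromosome 14, 55578123 to 55581529), the alpha subunit of PA28, was at 80.4, 70.1, 80.5, 72.4 and 78.4 CPM in HFDfre and at 69.8, 54.6, 48.0 and 64.1 CPM in HFDfri. After TMM scaling it was the only one of the 49 genes whose HFDfri libraries were all below the HFDfre ones. This pattern was found in 3.66% of all genes, and the gap between HFDfri 1 and HFDfre 2 was small. The log2 difference was -0.37 ± 0.11 (edgeR adjusted p = 0.109), and without HFDfri 1 it was -0.47 ± 0.11 with an adjusted p of 0.0293. Its partner Psme2 (chromosome 14, 55587441 to 55591113) was at 70.6, 63.2, 75.3, 59.0 and 68.5 CPM in HFDfre and at 65.3, 53.4, 43.7 and 55.7 CPM in HFDfri. After TMM scaling only HFDfri 1 reached into the HFDfre range of Psme2. By library totals without TMM, all HFDfri libraries of Psme1 and of Psme2 lay below the HFDfre ones. The log2 difference of Psme2 was -0.30 ± 0.12 (edgeR adjusted p = 0.174), and -0.41 ± 0.11 without HFDfri 1 (adjusted p = 0.0468).

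Psmb9 (ENSMUSG00000096727, chromosome 17, 34181987 to 34187764), which takes the place of Psmb6 in the immunoproteasome, was at 24.0, 20.97, 28.7, 18.997 and 24.8 CPM in HFDfre and at 16.7, 18.2, 13.3 and 19.9 CPM in HFDfri. HFDfri 4 lay above HFDfre 4, and the other HFDfri libraries lay below every HFDfre library. Its log2 difference of -0.47 ± 0.14 was the largest decrease among the 49 genes, with an edgeR adjusted p of 0.112. Psmb8 (chromosome 17, 34197721 to 34201454), which replaces Psmb5, was at 27.5, 23.8, 29.4, 23.2 and 24.8 CPM in HFDfre and at 18.4, 25.5, 17.4 and 25.4 CPM in HFDfri. The HFDfri libraries of Psmb8 fell into a low and a high pair, and the log2 difference was -0.25 ± 0.14 (edgeR adjusted p = 0.320).

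Psmb10 (chromosome 8, 105935735 to 105938444), which replaces Psmb7, was at 30.4, 24.9, 25.5, 23.3 and 26.8 CPM in HFDfre and at 27.1, 21.2, 22.9 and 22.7 CPM in HFDfri. HFDfri 1 again reached into the HFDfre range, and the log2 difference was -0.16 ± 0.11 (edgeR adjusted p = 0.424). Psme1, Psmb9, Psmb8 and Psmb10 overlap annotated genes on the opposite strand (Emc9, Tap1 and 2 antisense transcripts). The use of strand in counting is not given in the sources used here, so reads of these pairs may not be separated. The same limit holds for Psmb7 (Nek6), Psmd9 (Hpd), Psmd5 (Cutal), Psmc3 (Slc39a13), Psma4 (AY074887), Psmc3ip (Mlx) and Psmd1 (Htr2b), with the overlapping gene in brackets. It also holds for Psma3, Psma5 and Psmd3, which overlap antisense or processed transcripts. On the same strand, Psma2 overlaps AW209491, Psmd1 overlaps Gm21972, Psmg3 overlaps Gm26938, and Psme2b overlaps Gm12185 and 9930111J21Rik1. Strand could not separate reads of the same-strand pairs. Overlaps with small RNAs and pseudogenes are not listed.

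**Figure D3:**
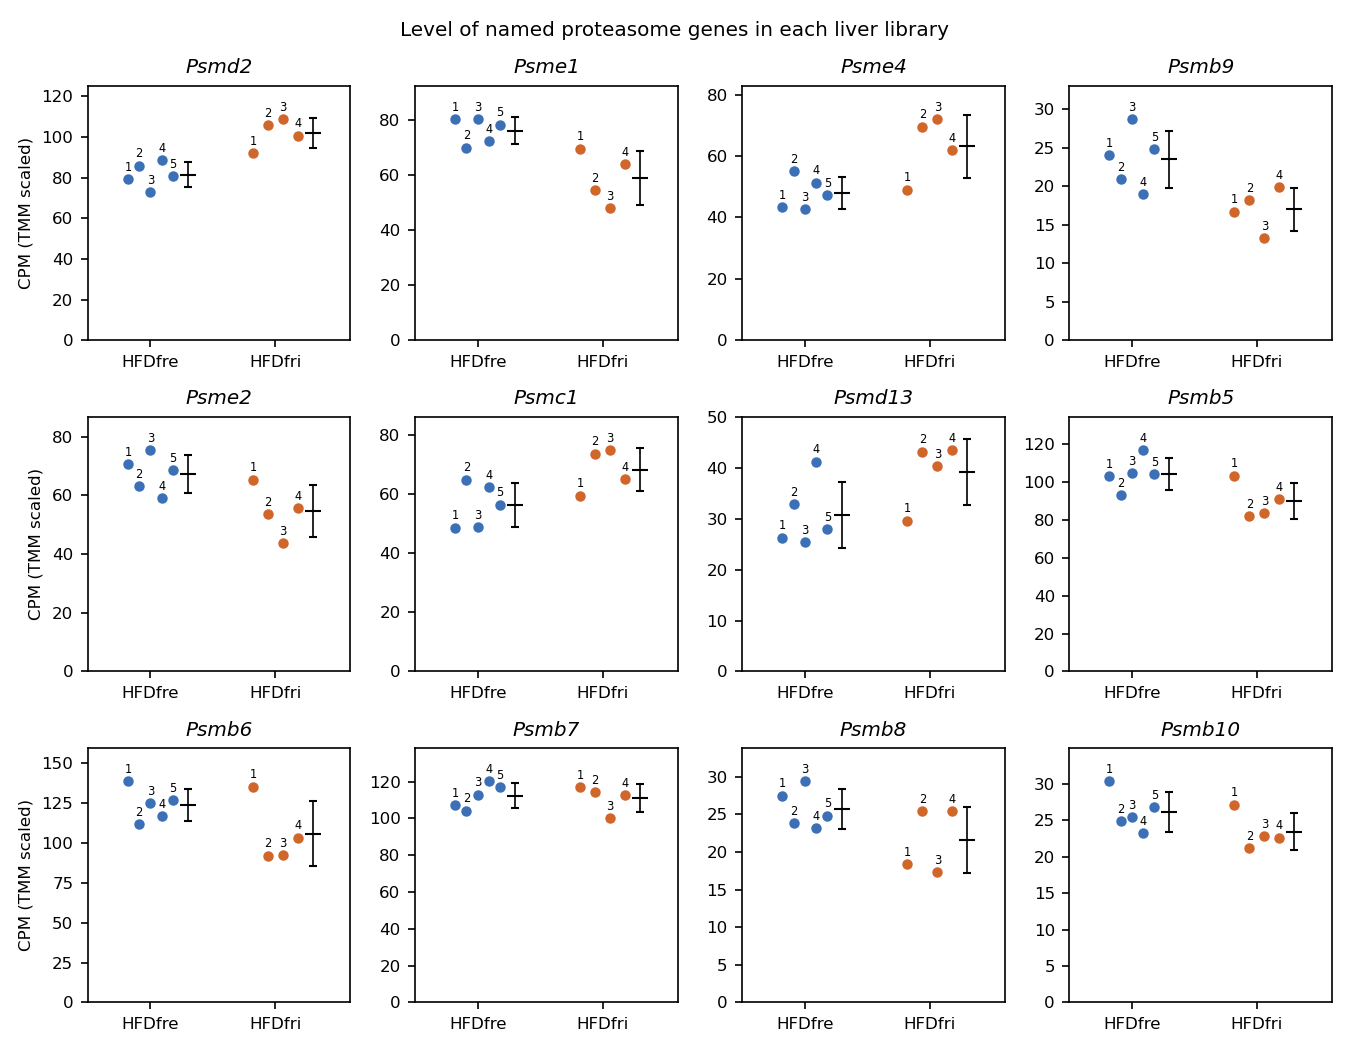
Level in CPM after TMM scaling of 12 proteasome genes in every library, with the replicate number above each point and the mean ± SD in black (HFDfre n = 5 in blue, HFDfri n = 4 in orange). Psmd2 is separated upward and Psme1 downward in HFDfri, and in the other panels at least 1 library crosses into the range of the other group.

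Whether the immunoproteasome subunits changed relative to the subunits they replace was tested with the log2 ratio of their counts. Per transcript length, Psmb8 was at 13.7% ± 1.76 of Psmb5 in HFDfre and 13.4% ± 3.38 in HFDfri, Psmb9 at 11.2% ± 1.53 and 9.71% ± 2.16 of Psmb6, and Psmb10 at 20.7% ± 2.88 and 18.7% ± 1.97 of Psmb7 (SD). The differences in the log2 ratio were -0.05, -0.23 and -0.14, in that order. Without HFDfri 1 the first was 0.09 and the second -0.10, and without HFDfre 1 the third was -0.07. None was larger than the spread between libraries by the two-sided exact permutation test (p = 0.794, 0.270 and 0.302, adjusted over the 3 ratios 0.794, 0.452 and 0.452, with 0.0159 the smallest p that 5 against 4 libraries allow). The groups overlapped in all 3 ratios.

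The 19S particle lay on the other side of 0, with 13 of 17 subunits higher in HFDfri, 4 lower and a median log2 difference of 0.09. The split ran from 10 higher and 7 lower without HFDfri 1, with a median of 0.04, to 16 higher and 1 lower after correction for GC content and length. Unadjusted p was under 0.05 for 3 of them, Psmd2, Psmc1 and Psmd13, all higher, where 11.4% of all genes were called higher.

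Psmd2 (ENSMUSG00000006998, chromosome 16, 20651652 to 20663414), a scaffold of the base that docks ubiquitin-carrying shuttle proteins, was at 79.2, 85.9, 72.8, 88.5 and 80.8 CPM in HFDfre and at 92.0, 106, 109 and 101 CPM in HFDfri. After TMM scaling it was the only one of the 49 genes whose HFDfri libraries all exceeded the HFDfre ones. This pattern was seen in 4.02% of all genes. By library totals without TMM, HFDfri 1 of Psmd2 lay within the HFDfre range. Its log2 difference was 0.32 ± 0.09, a 1.25-fold higher level, with an edgeR adjusted p of 0.0878, the smallest of the 49. Without HFDfri 1 it was 0.36 ± 0.08, with an adjusted p of 0.0315.

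Psmc1 (chromosome 12, 100110154 to 100123405), an ATPase of the ring that unfolds substrates, was at 48.6, 64.8, 48.8, 62.2 and 56.4 CPM in HFDfre and at 59.4, 73.6, 74.8 and 65.1 CPM in HFDfri. Only HFDfri 1 lay within the HFDfre range, and the log2 difference was 0.28 ± 0.11 (edgeR adjusted p = 0.188). Psmd13 (chromosome 7, 140881968 to 140898643), a lid subunit, was at 26.3, 32.9, 25.4, 41.3 and 28.0 CPM in HFDfre and at 29.6, 43.2, 40.4 and 43.5 CPM in HFDfri. HFDfre 4 ranked with the HFDfri libraries and HFDfri 1 with the HFDfre ones, and the log2 difference was 0.35 ± 0.16 (edgeR adjusted p = 0.231). Psmd13 overlaps Sirt3 on the opposite strand and is uncertain for that reason.

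Summed over genes, the lid was at 390 to 441 CPM in HFDfre and at 442 to 451 CPM in HFDfri, and the further base subunits were at 237 to 255 CPM and 256 to 279 CPM. Neither sum overlapped between the groups after TMM scaling, by narrow margins, whereas the ATPases, at 389 to 409 CPM and 390.01 to 445 CPM, overlapped. By library totals without TMM the lid and base sums overlapped too, with TMM factors of 1.0453 in HFDfre 4 and 0.9087 in HFDfri 1. After TMM scaling only Psmd2 of the single genes in these sums did not overlap, a pattern found in 4.02% of all genes. By library totals Psmd2 overlapped as well. The 20S core was at 1188 to 1309 CPM in HFDfre and at 1366, 1111, 1097 and 1202 CPM in HFDfri 1 to 4. After TMM scaling HFDfri 1 was thus the highest of all 9 libraries in the core sum, and HFDfri 2 and 3 were the lowest. This order depended on the scaling. By library totals without TMM, HFDfre 5 was the highest and HFDfre 1 the lowest.

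The summed 19S counts relative to the summed 20S counts gave ratios of 0.794, 0.879, 0.809, 0.879 and 0.807 in HFDfre and of 0.854, 0.983, 1.004 and 0.921 in HFDfri. The means were 0.834 ± 0.0417 and 0.941 ± 0.0677 (SD). HFDfri 1 lay within the HFDfre range and the other 3 above it. The ratio was examined after its parts had been seen and was given no test.

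**Figure D4:**
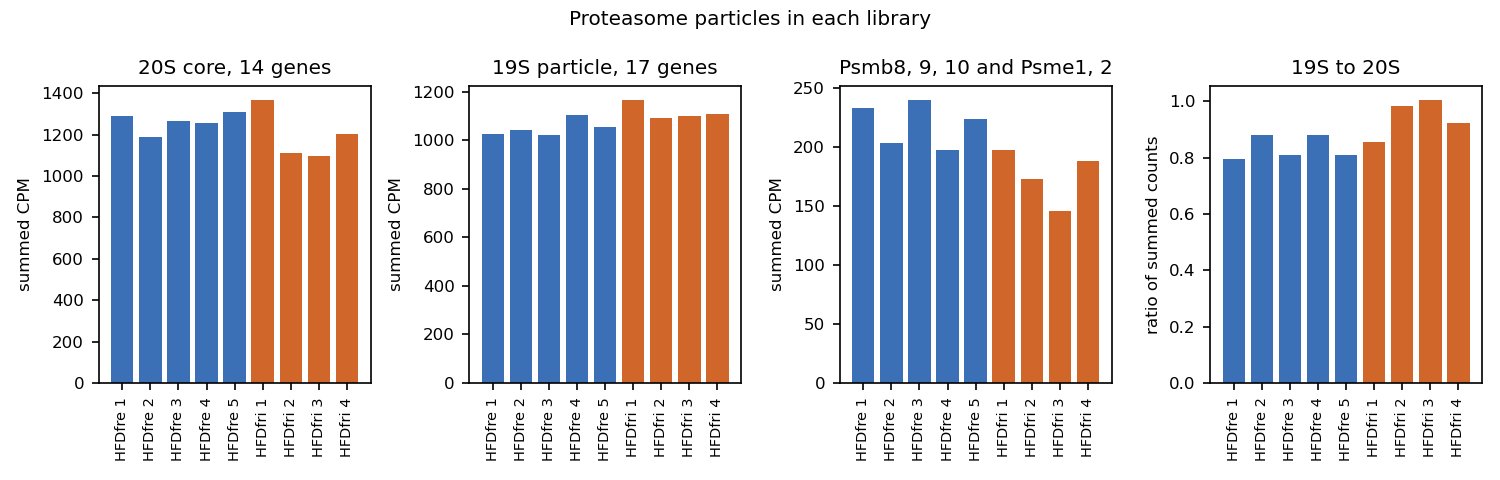
Summed CPM after TMM scaling of the 20S core, the 19S particle and the interferon-inducible genes, and the ratio of 19S to 20S counts, in each of the 9 libraries (HFDfre blue, HFDfri orange). The ratio is 0.794 to 0.879 in HFDfre and 0.854 to 1.004 in HFDfri, and HFDfri 1 has the highest core sum, at 1366.

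Transcripts of the 20S core are shorter than those of the 19S particle, with medians of 1162.5 and 1636 bases, and the log2 difference moved with length. Across 46 proteasome genes, which are not independent replicates and share their libraries, Spearman's rho of the log2 difference was 0.616 with transcript length and -0.434 with GC content. Across 14084 genes the values were 0.246 and -0.120. After this correction rho with length was 0.338 in the proteasome genes and -0.0076 in all genes. The corrected median was 0.04 for the 20S core and 0.16 for the 19S particle, beside 0.03 for all genes, and 0.10 for the 49 genes together. At an unadjusted p under 0.05 the corrected fit gave 11 higher and 2 lower proteasome genes, against 12.4% and 6.74% of all genes, and none passed the adjusted threshold. The part of transcript length and GC content in the difference between the particles was not tested further.

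**Figure D5:**
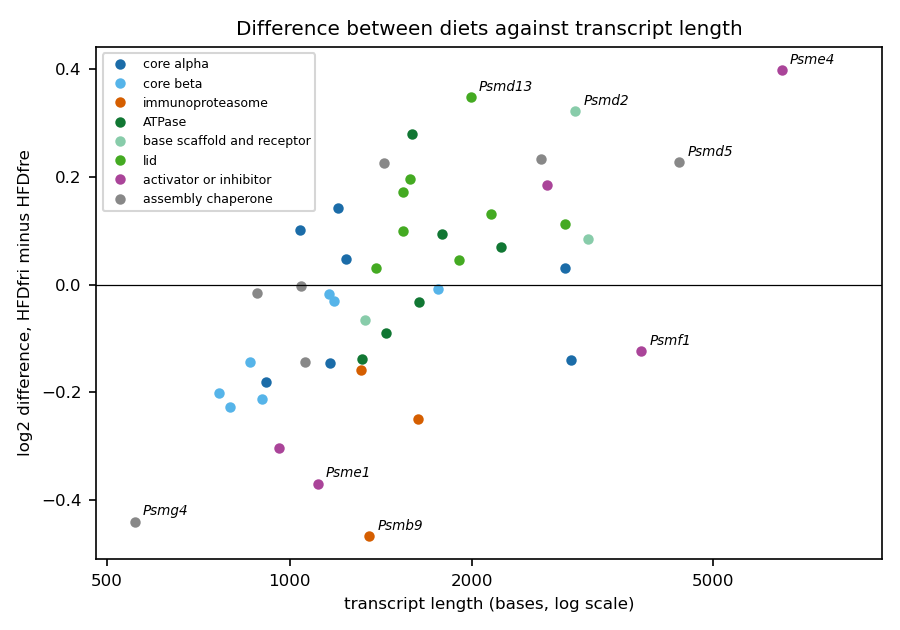
Log2 difference (HFDfri minus HFDfre) against transcript length in bases (log axis) for 46 proteasome genes, coloured by role. The shortest, Psmg4 (555 bases, -0.44), lies below 0 and the longest, Psme4 (6491 bases, 0.40), lies at the top, with a Spearman's rho of 0.616. Other genes depart from this order, such as Psma1 (1201 bases, 0.14) above 0 and Psmf1 (3809 bases, -0.12) below it.

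Among the other regulators, Psme4 (ENSMUSG00000040850, chromosome 11, 30771726 to 30880361), the PA200 activator, which caps the core without ATP or ubiquitin, was at 43.4, 55.02, 42.6, 51.4 and 47.2 CPM in HFDfre and at 49.1, 69.6, 72.0 and 62.0 CPM in HFDfri. All HFDfri libraries but HFDfri 1 exceeded the HFDfre range. The log2 difference was 0.40 ± 0.12 (edgeR adjusted p = 0.112) and 0.49 ± 0.10 without HFDfri 1 (adjusted p = 0.0238), and it was 0.32 after correction for GC content and length. Psme3, the nuclear PA28 gamma activator, had a log2 difference of 0.18 ± 0.10 (edgeR adjusted p = 0.320). Psmf1, an inhibitor of the core, had -0.12 ± 0.09 (edgeR adjusted p = 0.478).

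The assembly chaperones were split, 3 higher and 4 lower in HFDfri, with a median log2 difference of -0.00. Psmd5, Psmd9 and Psmd10, which guide the assembly of the ATPase ring, had log2 differences of 0.23, 0.23 and 0.23. Psmg1 to Psmg4, which guide the alpha ring, were below 0 in 4 of 4, in 2 of 4 when scaled by library totals without TMM and in 1 of 4 after correction for GC content and length. Psmg4 was the lowest, at -0.44 ± 0.21 (edgeR adjusted p = 0.261), and at -0.71 ± 0.17 without HFDfri 1 (adjusted p = 0.0339). None of the 7 had an unadjusted p under 0.05 with all libraries.

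The remaining kept genes were close to the detection limit. Psma8 was at 0.197 to 1.01 CPM and Psme2b at 0.125 to 0.514 CPM, and reads of Psme2b may not be separated from those of Psme2. Psmc3ip, the lowest of the 49 per kilobase, was at 0.270, 0.343, 0.336, 0.421 and 0.0979 CPM in HFDfre and at 0.427, 0.138, 0.421 and 0.592 CPM in HFDfri. The Psmc3ip libraries overlapped, with a log2 difference of 0.42 ± 0.52 (edgeR adjusted p = 0.688).

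Genes that work with the proteasome were counted in 5 lists, none of which held a gene past the adjusted threshold in edgeR. The counts at an unadjusted p under 0.05 stand beside 11.4% higher and 9.79% lower among all genes. Among 17 further proteasome parts and cofactors, 11 lay above 0 and 6 below, at a median log2 difference of 0.07, and 5 had an unadjusted p under 0.05 (4 higher and 1 lower), against 21.2% of all genes in either direction. They included Ddi2, the protease that activates the transcription factor NRF1 (gene Nfe2l1). Ddi2 was at 148 ± 8.03 CPM in HFDfre and 197 ± 18.2 CPM in HFDfri (log2 0.41 ± 0.09, edgeR adjusted p = 0.0528). Its HFDfri libraries all exceeded the HFDfre ones, a pattern found in 4.02% of all genes. The ubiquitin shuttle Ubqln1 had a log2 difference of 0.26 ± 0.08 (edgeR adjusted p = 0.118), and Zfand5, which stimulates the proteasome, had -0.40 ± 0.09 (edgeR adjusted p = 0.0627).

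Of 8 genes of the VCP segregase, which pulls ubiquitin-tagged proteins out of membranes and complexes, 7 were higher and 1 lower, with a median of 0.11, and 3, all higher, had an unadjusted p under 0.05, against 11.4% of all genes. These 3 were Vcp at 0.21, Nploc4 at 0.53 and Faf2 at 0.34 (log2 differences). Of 6 genes of ubiquitin and its activation, 3 were higher and 3 lower, with a median of -0.01, and the activating enzymes Uba1 and Uba6 had an unadjusted p under 0.05, with log2 differences of 0.20 and 0.67.

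The 10 regulators of proteasome genes were split evenly, 5 above 0 and 5 below, at a median log2 difference of 0.03. An unadjusted p under 0.05 was found for 2 higher genes, Ddi2 among them, and 2 lower ones, against 11.4% and 9.79% of all genes. Nfe2l2, which encodes NRF2, was at 66.7 ± 9.46 CPM in HFDfre and 49.8 ± 0.601 CPM in HFDfri (log2 -0.42 ± 0.10, edgeR adjusted p = 0.0701). Its HFDfri libraries were all below the HFDfre ones, a pattern found in 3.66% of all genes. Its partner gene Maff had a log2 difference of 0.65 ± 0.16 (edgeR adjusted p = 0.0701) and Mafg one of -0.32 ± 0.14 (edgeR adjusted p = 0.231).

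The MHC class I and interferon list was below 0 in 15 of 16 genes (13 when scaled by library totals without TMM), with a median log2 difference of -0.28, beside -0.30 for the 5 interferon-inducible proteasome genes. An unadjusted p under 0.05 was found for 7 lower genes and 1 higher one, Erap1, a peptide-trimming enzyme, at 0.33, against 9.79% and 11.4% of all genes. The lower ones included B2m, the light chain of MHC class I, at -0.53 ± 0.15 (edgeR adjusted p = 0.101), and the heavy chains H2-K1 at -0.32 ± 0.10 and H2-D1 at -0.34 ± 0.10 (edgeR adjusted p = 0.112 and 0.101). The interferon-stimulated genes Ifit3 and Isg15 stood at -0.62 and -0.69.

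Leukocyte markers moved in the same direction as these genes. Of 10 markers, 9 were lower in HFDfri, with a median log2 difference of -0.87, none was at 0 in all libraries, and Cd52, Coro1a and Itgax had an unadjusted p under 0.05, all lower, against 9.79% of all genes called lower. Their summed level was 15.7 to 28.9 CPM in HFDfre and 14.4 to 17.7 CPM in HFDfri. Of 9 macrophage markers 8 were lower, none at an unadjusted p under 0.05, with sums of 93.6 to 196 CPM and 103 to 144 CPM. The part of leukocytes in the lower levels of Psmb8, Psmb9, Psmb10, Psme1 and Psme2 was not tested, and in bulk liver fewer cells of a type and less RNA per cell cannot be told apart.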

How the data were processed

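Liver RNA-seq of 5 HFDfre and 4 HFDfri mice was analysed. The authors extracted RNA with TRIzol, and the submitters' processing notes name HISAT2, StringTie and mm10. The library kit is NEBNext Ultra in the labels and KAPA RNA HyperPrep in the methods, and the annotation, the counting step and the use of strand are not given in the sources used here. The authors deposited estimated counts of each gene, as whole numbers unscaled between libraries, and low values pile up at multiples of 4 (3990 values of 4 against 2172 of 3 and 1840 of 5), so count models treat counting error only approximately. The counts were rounded, which left them as they were.

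Genes passing filterByExpr by group (14220) were fitted in edgeR 4.0.16 (R 4.3.3; quasi-likelihood test) with TMM and no covariate, as HFDfri minus HFDfre, with Benjamini-Hochberg adjustment over all genes and SE as the log2 difference divided by the square root of F. The fit was tested on simulated data. The p-values measure the spread between these libraries. Ratios were compared with two-sided exact permutation tests (scipy 1.17.1). Coordinates and transcript lengths came from GENCODE M21 (GRCm38), in which 96.3% of identifiers and all 50 proteasome genes were found, and start regions from RefSeq. Regions on chromosome 18 are not reported here.

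Values per library are given for the 8 genes with the smallest p, the constitutive and immunoproteasome catalytic subunits, and the highest and lowest gene per kilobase. Pathway genes were named at an unadjusted p under 0.05. The genes and lists were chosen with earlier results of these data known. Alternatives were DESeq2 1.42.0, limma-voom (limma 3.58.1), DESeq2 size factors, library totals without TMM, a fit without mitochondrial genes and Gm26924, no filter, a filter of 10 counts in at least 4 libraries, a robust fit, the Gm26924 share as a covariate, a replicate block and each library left out. Correction for GC content and for transcript length, possible for the 99.0% of genes with a transcript, was added after the data were seen.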

Additional observations from a re-analysis of the deposited data

How the results depend on the processing

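The count of proteasome genes past the adjusted threshold was 0 in edgeR and under the other settings run, except 4 with DESeq2 and a range of 0 to 8 when each library was left out, with 8 only without HFDfri 1. Genes higher at an unadjusted p under 0.05 numbered 4, against 2 with library totals, 5 without mitochondrial genes and Gm26924 (where 3 were lower), 11 with the GC and length correction and 2 to 9 with a library left out. Genes lower numbered 4, against 3 with library totals, 2 with the GC and length correction and 2 to 13 with a library left out; 9 and 13 came without HFDfri 1. The median log2 difference of -0.01 became 0.0461 with library totals, which moved the median of all genes from -0.01 to 0.05, and 0.0955 with the GC and length correction, which moved it to 0.03. It ran from -0.04 to 0.02 with a library left out. The log2 ratio of Psmb8 to Psmb5 differed by -0.179 to 0.0879 with a library left out, with 0.0879 without HFDfri 1 and 0.013 without HFDfri 3. With the GC and length correction the log2 differences of Psmb5, Psmb6, Psmb7 and Psmb10 became 0.0175, 0.0021, 0.126 and 0.0178. That of Psmb7 became 0.0355 with library totals and ran from -0.0539 to 0.0295 with a library left out. The cause was not tested. The replicate numbers did not pair the libraries, with correlations of 0.03, 0.08, -0.14 and 0.03 between same-numbered ones. With the replicate number as a block, 0 proteasome genes passed the adjusted threshold, 4 were higher and 4 lower at the unadjusted one, the median was 0.02, and the 3 ratios differed by -0.06, -0.21 and -0.15. Even a difference of several SE did not pass the adjusted threshold in edgeR, as with Psmd2 at 0.32 ± 0.09 (edgeR adjusted p = 0.0878). Differences smaller than that relative to their SE, and those of Psma8, Psmc3ip and Psme2b with few counts, could not be resolved at this depth and number of libraries.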

Other observations

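The proteasome genes varied somewhat less between mice on the same diet than all tested genes above a common minimum level. Among the 43 with a mean of at least 10 CPM, the median within-group SD on the log2 scale was 0.13, beside 0.17 for the 6473 tested genes above the same level. Without a minimum level the median over all tested genes was 0.26. The sets were not matched for level above the minimum, and the part of level in the lower spread was not tested. The median SD was 0.12 in the lid, 0.13 in the constitutive beta subunits and 0.14 in the ATPases. It was 0.22 in the immunoproteasome subunits and 0.17 in the activators and inhibitors.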
